A study of Mus musculus with 6 samples.

Results

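The transcripts described here are 10 genes of MHC class I antigen presentation in primary mouse astrocytes. They are the class I heavy chains H2-K1, H2-D1, H2-Q4 and H2-T23, the light chain B2m, the peptide transporter subunits Tap1 and Tap2, the loading chaperone Tapbp, the trimming peptidase Erap1 and the transcriptional activator Nlrc5. They are a selection of the pathway's known components, taken by gene symbol with earlier results of these data known, and all 10 were among the 14147 genes listed in the deposited table. The study used RNA sequencing to compare primary astrocytes given human IgG against aquaporin-4 (AQP4-IgG, 3 libraries) with primary astrocytes given a human control IgG (Control-IgG, 3 libraries), both labelled wild type and 24 h. AQP4-IgG is the serum antibody of neuromyelitis optica, an inflammatory disease in which astrocytes are attacked. The series title also speaks of conditioned medium, and the labels give no mouse strain, age, number of animals, culture composition or IgG dose. The labels do not state that libraries of 1 group were grown as separate cultures, so p-values measure library-to-library spread only, and that spread may be technical.

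Class I molecules display peptides from inside the cell to CD8 T cells. A polymorphic heavy chain pairs with beta-2-microglobulin, and peptides cut by proteasomes enter the endoplasmic reticulum through the TAP1-TAP2 transporter, are trimmed by the aminopeptidase ERAP1 and are loaded with the help of tapasin. The heavy chain, B2m and TAP genes respond to interferons and NF-kB through elements upstream of their start sites, and NLRC5 acts on the same promoters. Resting astrocytes carry little surface class I, and cytokines raise it.

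The promoters of the genes for heavy chains and B2m are shown because 2 sequence elements of the pathway can be read in them directly. RefSeq windows in GRCm38.p6 (250 bases before to 50 bases after a start site) were matched for 8 of the 10 genes, all except Tap2 and Nlrc5. Each line below gives the 250 bases before the start, 5′ to 3′ on the strand of the gene. Capitals mark matches on either strand to an NF-kB motif (GGG, any 2 bases, TT, any base, CC) and to AANNGAAA, the core letters of an interferon-regulatory-factor site. The windows are chr17:34000348-34000597 (minus strand) for H2-K1, chr17:35262844-35263093 (plus) for H2-D1, chr17:35379367-35379616 (plus) for H2-Q4, chr17:36032702-36032951 (minus) for H2-T23 and chr2:122147437-122147686 (plus) for B2m. Those of H2-D1 and H2-T23 overlap the deposited gene interval, whose outermost start differs from that of RefSeq.
H2-K1: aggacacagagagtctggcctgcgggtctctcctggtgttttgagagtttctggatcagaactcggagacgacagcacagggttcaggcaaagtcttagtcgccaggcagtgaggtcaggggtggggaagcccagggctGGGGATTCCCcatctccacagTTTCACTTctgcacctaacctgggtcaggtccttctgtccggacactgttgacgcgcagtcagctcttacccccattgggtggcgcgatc
H2-D1: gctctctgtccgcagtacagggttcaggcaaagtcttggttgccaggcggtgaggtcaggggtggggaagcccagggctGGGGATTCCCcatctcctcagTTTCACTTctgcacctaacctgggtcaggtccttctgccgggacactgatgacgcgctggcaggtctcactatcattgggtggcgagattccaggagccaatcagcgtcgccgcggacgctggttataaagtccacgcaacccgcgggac
H2-Q4: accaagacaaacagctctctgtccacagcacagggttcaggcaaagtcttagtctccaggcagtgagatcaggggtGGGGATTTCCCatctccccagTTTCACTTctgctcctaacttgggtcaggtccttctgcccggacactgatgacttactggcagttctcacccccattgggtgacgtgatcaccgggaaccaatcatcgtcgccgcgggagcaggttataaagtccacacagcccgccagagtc
H2-T23: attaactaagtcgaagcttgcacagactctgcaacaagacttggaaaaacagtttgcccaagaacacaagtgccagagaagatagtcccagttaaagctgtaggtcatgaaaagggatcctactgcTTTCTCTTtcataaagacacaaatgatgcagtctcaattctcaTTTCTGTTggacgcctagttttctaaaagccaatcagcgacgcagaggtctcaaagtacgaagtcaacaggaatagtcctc
B2m: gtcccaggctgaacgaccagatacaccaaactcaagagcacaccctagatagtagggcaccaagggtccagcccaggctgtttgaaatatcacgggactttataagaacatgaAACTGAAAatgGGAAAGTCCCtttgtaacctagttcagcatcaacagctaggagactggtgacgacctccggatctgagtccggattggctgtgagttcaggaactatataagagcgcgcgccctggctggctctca

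Both sets of letters stood in the windows of H2-K1, H2-D1, H2-Q4 and B2m, that is in 4 of 8 members, against 1.16% of all 32851 windows of the same length. The motifs were chosen as elements of this pathway, and the windows of H2-K1, H2-D1 and H2-Q4 resemble each other. The 4 matches are thus not independent, and the contrast with all windows is a description only. In H2-K1, H2-D1 and H2-Q4 the NF-kB letters lay upstream of the interferon letters. In B2m the order was the opposite. H2-K1 and H2-D1 shared 136 of 150 bases (90.7%) when aligned on the NF-kB letters without gaps, from 50 bases before them. H2-Q4 shared 103 of 150 bases with H2-K1 in the same way. H2-K1 and H2-D1 carry a stretch directly before these letters that H2-Q4 lacks. Bases further upstream were thus compared out of register, and the count for H2-Q4 understates its likeness. The H2-T23 window held the interferon letters at 2 places and no match to the NF-kB motif. Taken alone, the NF-kB motif matched 4.79% and AANNGAAA 23.9% of all windows, so the latter is common. Erap1 held AANNGAAA across its start site, and the windows of Tap1 and Tapbp matched neither. The windows of H2-D1, Erap1 and Tapbp lie inside the deposited gene intervals, so sequence before the outermost starts of these genes was not searched in full. The Tap1 window shares 275 of its 300 bases with the window of Psmb9, an immunoproteasome gene read in the opposite direction. A match describes letters only and was not tested as a binding site.

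Expression is given in FPKM, read counts divided by exon length and by the size of the library. The libraries held 17.9 to 20.6 M reads, as recovered from the FPKM steps. Genes averaging at least 1 FPKM over the 6 libraries were tested with limma on log2(FPKM + 1), 12334 genes in all, with Benjamini-Hochberg adjustment over all of them and a threshold of 0.05. On this scale changes of weakly expressed genes are understated. In the tested genes 1.46% were called higher and 0.632% lower (2.09% in either direction) with AQP4-IgG, and the median change was 0.00.

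All 10 genes had a higher mean with AQP4-IgG, where 50.1% of listed genes did. The ratio of group means ran from 1.19 for Tap2 to 2.61 for H2-Q4, with a median of 1.53. Every AQP4-IgG library lay above every Control-IgG library in 8 of the 10 genes, against 10.3% of all listed genes. The exceptions were H2-D1 and Tap2. Of the 9 genes tested, 1 rose past the threshold (Tapbp), 0 fell and 8 did not pass; 8 of 9 had an unadjusted p under 0.05 and a higher level, against 7.64% of tested genes. The median log2 difference over these 9 was 0.55. Nlrc5 averaged below 1 FPKM and was not in the test. In these bulk samples a change in the number of cells of a type and a change in RNA per cell cannot be told apart.

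**Figure D1:**
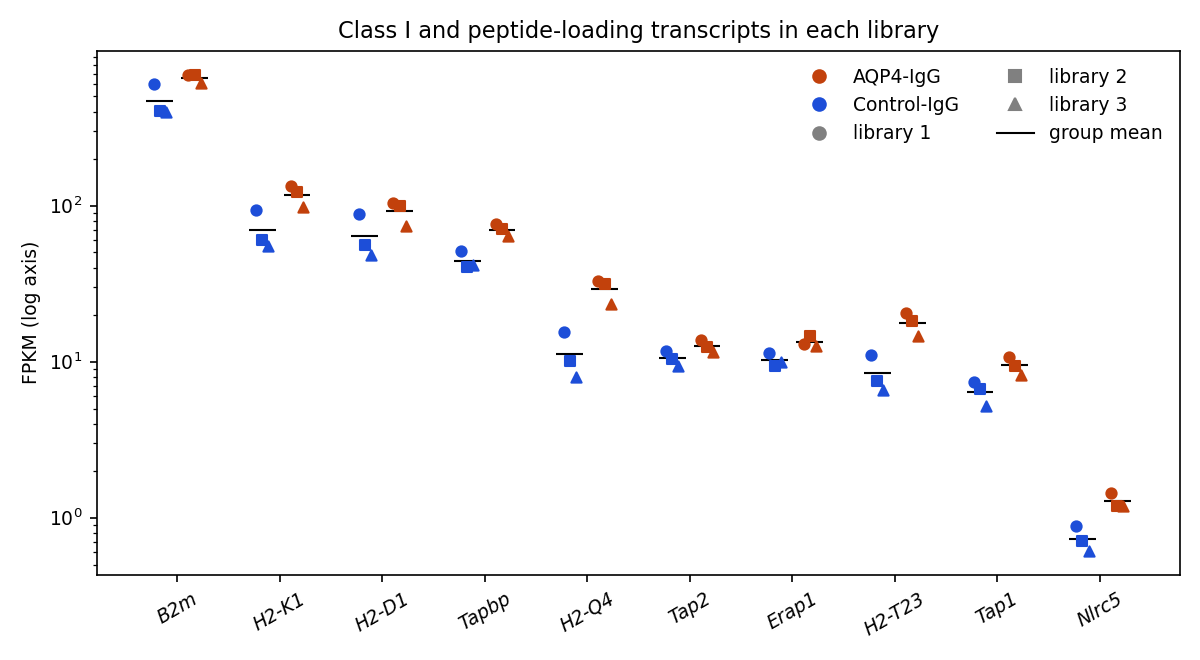
FPKM of each of the 10 genes in each library on a log axis, ordered by the control mean, with Control-IgG in blue, AQP4-IgG in orange, marker shape giving the library number and a line at the group mean. B2m lies highest and Nlrc5 lowest, and Control-IgG 1 is the highest control library for all 10 genes.

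Among the heavy chains, the classical genes H2-K1 and H2-D1, which present peptides to CD8 T cells, were the most abundant. H2-K1 (ENSMUSG00000061232, GRCm38 chromosome 17, 33996017 to 34000333, minus strand) measured 133, 121.9 and 97.5 FPKM in AQP4-IgG libraries 1, 2 and 3. In Control-IgG libraries 1, 2 and 3, the order kept below, it measured 93.4, 60.3 and 55.1 FPKM. The groups did not overlap, but the lowest AQP4-IgG library was only 1.04 times the highest control library. Its means were 117 ± 18.0 and 69.6 ± 20.7 FPKM (SD, n = 3 each), with a log2 difference of 0.77 (95% interval 0.16 to 1.38, adjusted p = 0.259).

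H2-D1 (ENSMUSG00000073411, chromosome 17, 35262730 to 35267499, plus strand) measured 104.4, 99.3 and 73.6 FPKM with AQP4-IgG and 88.4, 55.5 and 48.4 FPKM with Control-IgG. Here Control-IgG 1 lay above AQP4-IgG 3, so the groups overlapped. The log2 difference was 0.55 with an interval from -0.16 to 1.27 (adjusted p = 0.507), the largest p of the 9 tested genes. H2-K1 lay above H2-D1 in every library of both groups, with control means of 69.6 ± 20.7 and 64.1 ± 21.3 FPKM. This difference between the genes was not tested.

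The nonclassical heavy chains had the largest ratios. H2-Q4 (ENSMUSG00000035929, chromosome 17, 35379617 to 35385290, plus strand), a Q-region class Ib gene, measured 32.7, 31.3 and 23.5 FPKM with AQP4-IgG and 15.5, 10.02 and 7.99 FPKM with Control-IgG. The groups stood apart by 1.52-fold at their nearest libraries, the widest gap of the 10 genes. The means differed 2.61-fold and the log2 difference was 1.34 (95% interval 0.67 to 2.02, adjusted p = 0.0999). H2-T23 (ENSMUSG00000067212, chromosome 17, 36029773 to 36032855, minus strand) encodes Qa-1, which presents leader peptides of other class I chains to NKG2A receptors of natural killer cells. It measured 20.4, 18.2 and 14.6 FPKM against 11.1, 7.49 and 6.61 FPKM, 2.12-fold by means. The groups did not overlap, and the log2 difference was 1.01 (95% interval 0.49 to 1.53, adjusted p = 0.0981). Neither gene passed, and both had the same libraries high and low as H2-K1.

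The heavy-chain genes resemble each other, and how reads that match several of them were assigned is not given in the sources used here. Of the 50-base stretches of their transcripts in GENCODE M21, 9.63% of H2-K1, 12.8% of H2-D1, 21.8% of H2-Q4 and 13.6% of H2-T23 also occur in transcripts of another gene. For H2-Q4 the most frequent other gene was H2-Q6, with 9.68% of its stretches. The effect of such reads on the levels of these 4 genes was not measured, and B2m, Erap1 and Nlrc5 shared 0%.

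B2m (ENSMUSG00000060802, chromosome 2, 122147686 to 122153083, plus strand), the light chain of all class I molecules, was the most abundant of the 10 transcripts. It measured 691, 682.5 and 609.6 FPKM with AQP4-IgG and 597.5, 406.6 and 400.4 FPKM with Control-IgG. At least 6268 reads stood behind each value, so counting error was small beside the spread between libraries. The groups were separate by 1.02-fold at their nearest libraries. The means differed 1.41-fold, with a log2 difference of 0.52 (95% interval 0.10 to 0.94, adjusted p = 0.27).

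Among the genes for peptide supply and loading, Tapbp was the 1 that passed. Tapbp (ENSMUSG00000024308, chromosome 17, 33915899 to 33929288, plus strand) encodes tapasin, which bridges empty class I molecules to TAP and edits their peptides. It measured 75.9, 70.7 and 63.4 FPKM with AQP4-IgG and 50.8, 40.1 and 41.3 FPKM with Control-IgG. All AQP4-IgG libraries exceeded all controls, by 1.247-fold at the nearest pair. It rose 1.59-fold from 44.1 ± 5.87 to 70.0 ± 6.25 FPKM (log2 difference 0.66, 95% interval 0.42 to 0.90, adjusted p = 0.0264). The call ended without AQP4-IgG 1 or 2 (adjusted p of 0.117 and 0.127) and without Control-IgG 2 or 3 (0.0953 and 0.0984).

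Tap1 and Tap2 encode the subunits of the peptide transporter and lie close together on chromosome 17, with the immunoproteasome gene Psmb8 between them. Tap1 (ENSMUSG00000037321, 34187553 to 34197225, plus strand) measured 10.7, 9.32 and 8.24 FPKM against 7.39, 6.63 and 5.15 FPKM. The groups did not overlap (1.48-fold by means, log2 difference 0.50, 95% interval 0.20 to 0.81, adjusted p = 0.13). Tap2 (ENSMUSG00000024339, 34203527 to 34216321, plus strand) measured 13.7, 12.4 and 11.5 FPKM against 11.7, 10.4 and 9.41 FPKM. Here AQP4-IgG 3 lay just below Control-IgG 1, and the ratio of 1.19 was the smallest of the 10 genes (log2 difference 0.24, 95% interval 0.04 to 0.43, adjusted p = 0.261).

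Erap1 (ENSMUSG00000021583, chromosome 13, 74639568 to 74693201, plus strand), which trims peptides to the length that fits class I molecules, measured 12.9, 14.5 and 12.5 FPKM against 11.3, 9.33 and 9.94 FPKM. Its groups did not overlap and AQP4-IgG 2 was its highest library, unlike the other 9 genes, for which it was AQP4-IgG 1. The means differed 1.30-fold (log2 difference 0.35, 95% interval 0.18 to 0.53, adjusted p = 0.0602). In limma-voom on recovered reads, a test that weights each value by its depth, Erap1 passed (adjusted p = 0.00698).

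Nlrc5 (ENSMUSG00000074151, chromosome 8, 94434356 to 94527272, plus strand), the activator of class I promoters, was near the lower limit of the table. It measured 1.45, 1.18 and 1.18 FPKM with AQP4-IgG and 0.88, 0.70 and 0.61 FPKM with Control-IgG. These values rest on 104 to 252 reads per library. Its groups did not overlap and its means differed 1.74-fold. With no filter on low values its log2 difference was 0.39 (adjusted p = 0.105), a scale on which a gene at this level moves little.

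**Figure D2:**
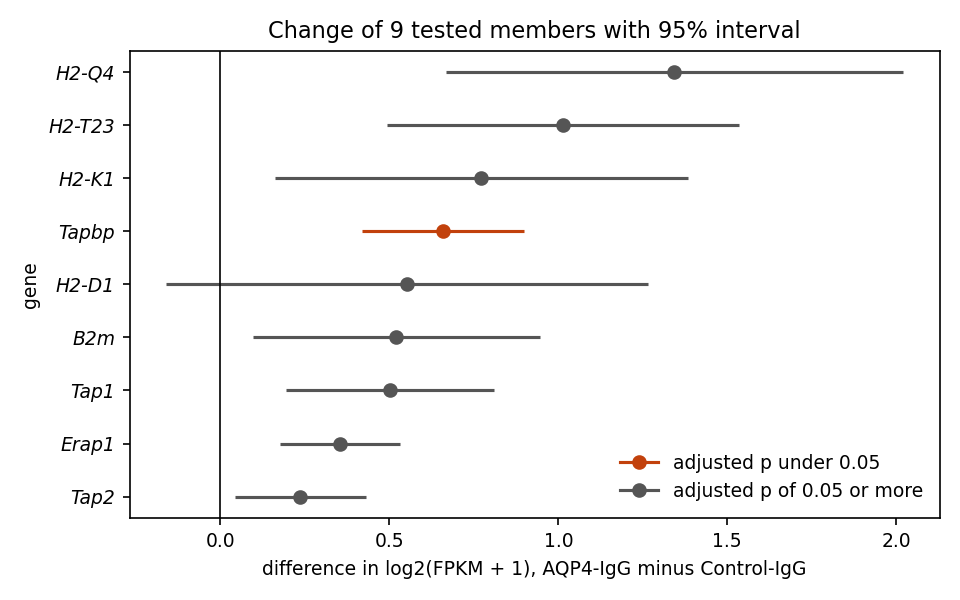
Difference in log2(FPKM + 1) between AQP4-IgG and Control-IgG (points) with its 95% interval from limma (lines) for the 9 tested genes. All 9 points are above 0, the interval of H2-D1 includes 0, and Tapbp is the 1 gene past an adjusted p of 0.05.

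The control libraries differed among themselves. Control-IgG 1 was the highest control library for 10 of 10 genes, where this held for 38.5% of all listed genes, and AQP4-IgG 3 was the lowest AQP4-IgG library for 9 of 10, against 40%. Control-IgG 1 exceeded the mean of the other controls 1.62-, 1.70-, 1.72- and 1.57-fold for H2-K1, H2-D1, H2-Q4 and H2-T23 and 1.48-fold for B2m. The excess was smaller for Tap1, Tap2, Tapbp and Erap1, between 1.172- and 1.253-fold, and was 1.34-fold for Nlrc5. For H2-D1 and B2m it was larger than the ratio between the groups.

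Without Control-IgG 1, 6 of the 9 tested genes passed, H2-K1, H2-Q4, H2-T23, B2m, Tapbp and Erap1, where 2.37% of all genes were called higher. Their adjusted p-values were then 0.0297, 0.0146, 0.00906, 0.000638, 0.00174 and 0.0184. The count was 0 without AQP4-IgG 1 or 2 or Control-IgG 2 or 3, and 1 without AQP4-IgG 3. In these fits, in that order, 0.438, 0.389, 0.308, 0.681 and 1.01% of all genes were called higher. The summed level of 20 microglia and macrophage markers, all of them listed and none at 0, was also highest in Control-IgG 1, at 1590 FPKM. The sum ranged from 1252 to 1590 FPKM in the controls and from 1240.0 to 1410.0 FPKM with AQP4-IgG. In AQP4-IgG libraries 1, 2 and 3 it was 1410, 1240 and 1311 FPKM. The summed level of 11 astrocyte markers was likewise higher in Control-IgG 1 (485.8 FPKM) than in Control-IgG 2 and 3 (423.7 and 454.9 FPKM). In AQP4-IgG libraries 1, 2 and 3 the astrocyte sum was 530.6, 509.7 and 468.4 FPKM. The part of either cell type in the level of class I transcripts was not tested.

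**Figure D3:**
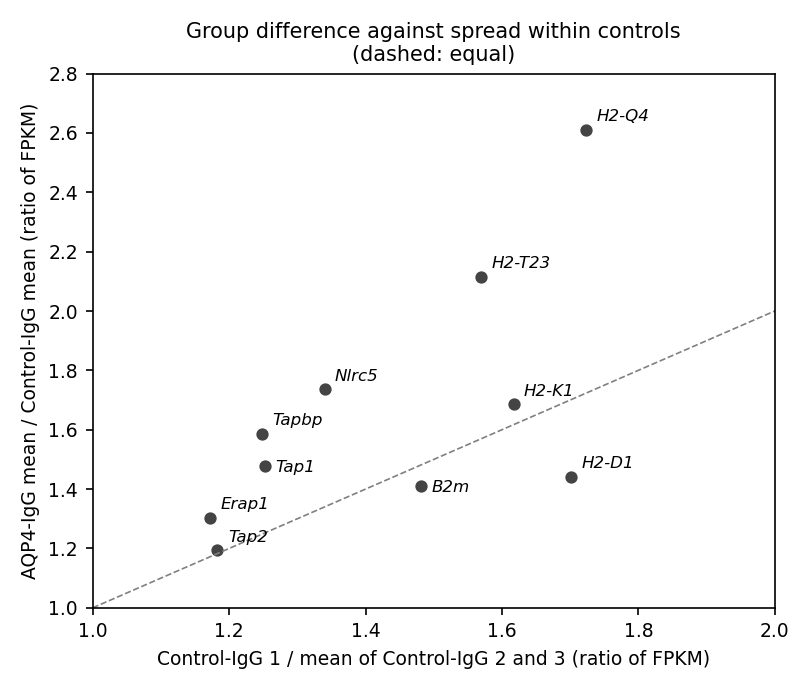
Ratio of the AQP4-IgG mean to the Control-IgG mean (vertical) against the ratio of Control-IgG 1 to the mean of the other control libraries (horizontal) for the 10 genes, with a dashed line where both are equal. H2-D1 and B2m lie below the line, and H2-Q4 and H2-T23 farthest above it.

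The proportions of these transcripts within each library were computed after the values had been seen and are given as descriptions, with no test. H2-Q4 made up 11.3, 11.6 and 11.2% of the summed FPKM of the 4 heavy chains with AQP4-IgG, against 7.45, 7.51 and 6.76% with Control-IgG. Control-IgG 1, high for every gene by level, thus lay among the controls by this measure. H2-K1 and H2-D1 together made up 81.7 ± 0.0416% with AQP4-IgG and 87.3 ± 0.39% with Control-IgG (SD, n = 3 each). The limit given above applies to the share of H2-Q4, with 21.8% of its stretches found in other genes.

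The subunits of the transporter were also in unequal proportion. Tap1 stood at 0.784, 0.754 and 0.717 of the level of Tap2 with AQP4-IgG and at 0.631, 0.640 and 0.547 with Control-IgG, so the groups did not overlap. B2m exceeded the sum of the 4 heavy chains 2.38-, 2.52- and 2.91-fold with AQP4-IgG and 2.87-, 3.05- and 3.39-fold with Control-IgG. Here the groups overlapped, at AQP4-IgG 3 and Control-IgG 1. The summed heavy chains averaged 257 ± 42.3 FPKM against 153 ± 48.3 FPKM, 1.68-fold, while B2m averaged 661 ± 44.8 against 468 ± 112 FPKM.

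**Figure D4:**
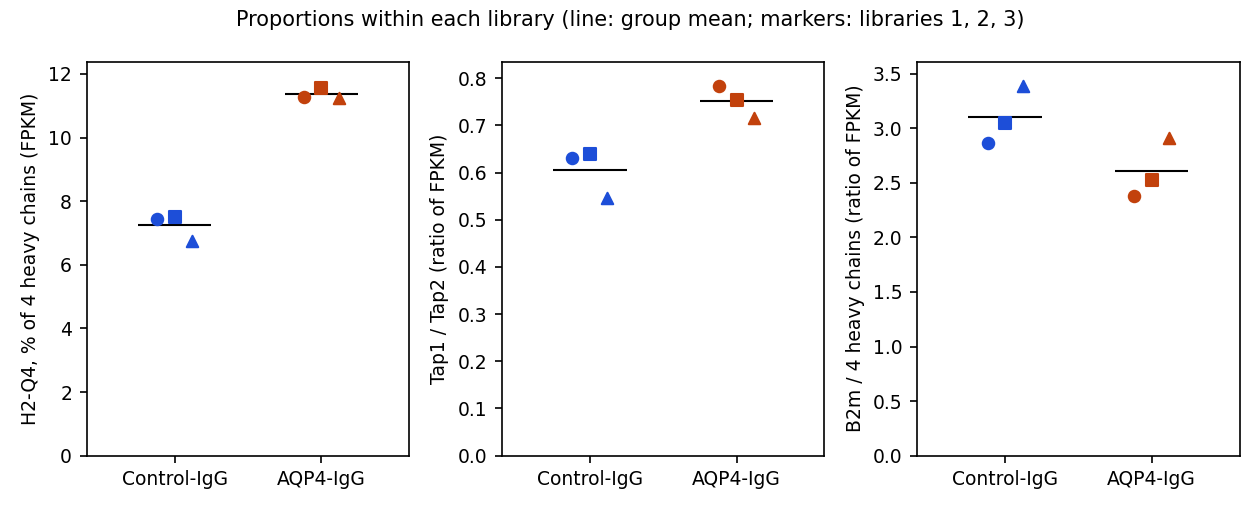
Percentage of H2-Q4 in the summed FPKM of H2-K1, H2-D1, H2-Q4 and H2-T23 (left), Tap1 over Tap2 (middle) and B2m over the 4 heavy chains (right) in each library, all axes from 0, with a line at the group mean. The groups are separate in the left and middle panels and overlap in the right one.

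Other class I genes were examined as a list of 19, of which 10 were listed and 7 tested. Of these 7, 1 rose, 0 fell and 6 did not pass, and the median log2 difference was 0.29. H2-T22, a nonclassical T-region gene recognised by gamma-delta T cells, rose 1.498-fold from 15.9 ± 1.65 to 23.8 ± 1.91 FPKM (log2 difference 0.56, adjusted p = 0.0155). Of its 50-base stretches, 34.5% occur in another gene, mostly in H2-T10. Its call ended without AQP4-IgG 1 or 2 (adjusted p of 0.0823 and 0.075) and without Control-IgG 2 or 3 (0.0632 and 0.0687). H2-Q6, the close relative of H2-Q4, measured 4.23, 4.19 and 2.72 FPKM against 2.40, 1.02 and 0.77 FPKM (log2 difference 1.02, adjusted p = 0.177). Of the 50-base stretches of H2-Q6, 31.97% occur in another gene, with 13.95% in H2-Q7 and 12.33% in H2-Q4.

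Of 20 tested genes of peptide supply and loading outside the 10, 4 rose, 0 fell and 16 did not pass, with a median log2 difference of 0.12. The 4 were the immunoproteasome subunits Psmb10, Psmb8 and Psmb9, which change the cutting preference of proteasomes, and Psme1, a subunit of the proteasome activator PA28. Psmb9, which shares its promoter region with Tap1, measured 2.17, 2.05 and 1.71 FPKM against 1.18, 0.915 and 0.913 FPKM (1.97-fold, adjusted p = 0.0207). Psme1 averaged 29.5 ± 2.03 against 21.9 ± 2.17 FPKM (1.35-fold, adjusted p = 0.033). Some calls ended without a library: 3 without AQP4-IgG 1 (adjusted p of 0.0534 to 0.116), 3 without AQP4-IgG 2 (0.0599 to 0.104), 1 without AQP4-IgG 3 (0.0687), 4 without Control-IgG 2 (0.0537 to 0.117) and 2 without Control-IgG 3 (0.0808 to 0.125). The call of Psme1 also ended without a trend in the variance (adjusted p = 0.0662). The general chaperones of the loading complex were looked up with their values known. Their ratios were near 1: calreticulin (Calr) 1.08, calnexin (Canx) 1.09 and the thiol oxidoreductase ERp57 (Pdia3) 1.09. The groups of Canx and Pdia3 did not overlap (unadjusted limma p of 0.00791 and 0.0101, adjusted p of 0.15 and 0.173), and those of Calr did. Of the 20 genes, 12 had every AQP4-IgG library above every control, against 10.4% of tested genes.

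Of 25 tested regulators of class I genes, 3 rose, 0 fell and 22 did not pass, with a median log2 difference of 0.07. Stat2, a transcription factor activated by type I interferon receptors, measured 11.7, 10.2 and 9.88 FPKM against 6.68, 5.24 and 4.76 FPKM. The groups did not overlap, and it rose 1.91-fold (10.6 ± 0.963 against 5.56 ± 0.996 FPKM, adjusted p = 0.0118). Its partner Irf9 rose 1.42-fold (adjusted p = 0.0414). Irf1, which binds the interferon elements of class I promoters, measured 5.68, 4.57 and 4.21 FPKM against 3.84, 3.02 and 2.66 FPKM, and did not pass (log2 difference 0.48, adjusted p = 0.116). The calls of Stat2 and Irf9 ended without AQP4-IgG 1 (adjusted p of 0.0539 and 0.112), AQP4-IgG 2 (0.0575 and 0.155) or Control-IgG 2 (0.0713 and 0.149), and that of Irf9 also without Control-IgG 3 (0.15), without a trend in the variance (0.0693) and with no filter on low values (0.0518). Without Control-IgG 1 the list had 7 genes past the test, Irf1 among them (adjusted p = 0.0297).

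MHC class II genes, which present peptides to CD4 T cells and mark antigen-presenting cells, were examined with genes that assist them as a list of 12. Of these 12 genes 7 were listed and 5 tested, of which 0 rose and 0 fell in limma, and 0 had an unadjusted p under 0.05. H2-DMb1, a peptide exchange factor of class II with the smallest p, averaged 2.83 ± 0.426 against 2.24 ± 0.342 FPKM (adjusted p = 0.389). The others were named after their values were seen. The class II chain H2-Aa stayed under 1 FPKM in all 6 libraries and was not tested. Its means differed 1.85-fold, higher with AQP4-IgG, and its groups did not overlap. The invariant chain Cd74 measured 5.71, 6.54 and 3.96 against 4.85, 2.97 and 3.18 FPKM, 1.47-fold by means, with overlapping groups. The most abundant of the list was the protease cathepsin S (Ctss), which is not particular to class II, at 73.4 ± 2.94 against 81.7 ± 11.6 FPKM.

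The label of the cells was checked against markers. Of 13 astrocyte markers 11 were listed, among them Gfap at 84.1 ± 6.97 and 77.7 ± 8.29 FPKM with AQP4-IgG and Control-IgG, and Gjb6 and Ntsr2 were not among the listed genes. Their summed level ranged from 468 to 531 FPKM with AQP4-IgG and from 424 to 486 FPKM with Control-IgG. Of the 11, 3 rose, against 1.46% of tested genes, and 0 fell. In 4 of the 11 every AQP4-IgG library lay above every control, against 10.4% of tested genes, and in 0 below. These were Aldh1l1, Slc1a2, Slc1a3 and Aqp4, with ratios of means of 1.311, 1.335, 1.256 and 1.256. Among 19 tested markers of microglia and macrophages, 1 (Cx3cr1) fell and 0 rose. In 5 of them every AQP4-IgG library lay below every control (Csf1r, Cx3cr1, Trem2, C1qb and C1qc). The share of all genes lying below in this way was not computed, so no excess can be read from this count. In 1, Itgam (4.69 against 3.45 FPKM), every AQP4-IgG library lay above, as in 10.4% of tested genes. Of 19 markers of oligodendroglia, neurons, vessels, fibroblasts and lymphocytes 8 were listed and 5 tested, with 0 past the test. Most of the myeloid sum came from the lysozyme gene Lyz2, at 825 ± 55.0 and 833 ± 113 FPKM.

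The genes whose values followed the mean of the 10 genes most closely over the 6 libraries were Znrf1, Il1a, Map2k2, H2-Q6 and Cebpd, with Pearson correlations of 0.997, 0.997, 0.996, 0.996 and 0.996. These are descriptions over 6 libraries in 2 groups, and 256 of 12325 other tested genes exceeded 0.95. The sizes of change differed widely among them: Map2k2, a kinase of the MAPK pathway, differed 1.06-fold and the cytokine Il1a 2.62-fold. H2-Q6 shares 12.33% of its 50-base stretches with H2-Q4, a member, so its values may not be separate from those of the 10 genes.

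The authors' deposited table gives adjusted p-values under 0.05 for 8 of the 10 genes, all higher with AQP4-IgG, where 2.03% of its rows are. In the authors' deposited table the adjusted p-value is 0.00102 for H2-Q4, 0.00253 for H2-T23, 0.000927 for Tapbp, 0.0179 for both H2-K1 and Nlrc5, 0.0251 for Erap1, 0.0352 for Tap1 and 0.0349 for B2m. H2-D1 and Tap2 do not pass in the authors' deposited table (adjusted p of 0.215 and 0.302). The log2 fold changes in the authors' deposited table run from 0.24 for Tap2 to 1.40 for H2-Q4. Its method is not stated.

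**Figure D5:**
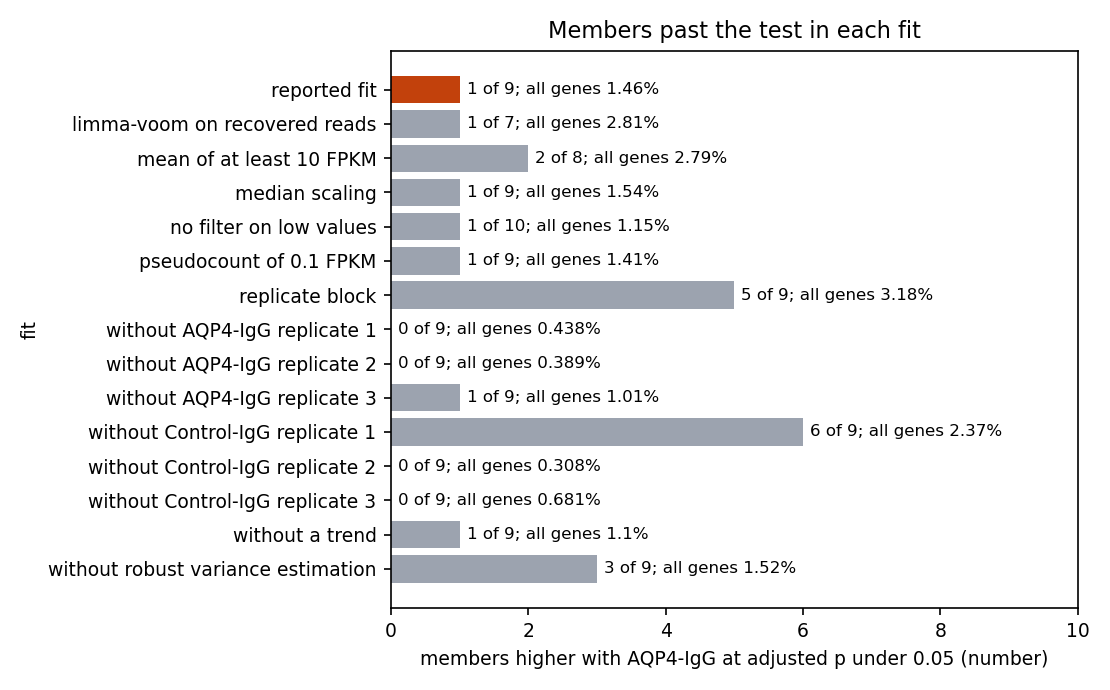
Number of the 10 genes higher with AQP4-IgG at an adjusted p under 0.05 (bars, from 0) in the reported limma fit (orange) and in each alternative fit (grey), with the number tested and the percentage of all genes called higher in that fit. The count is 1 in the reported fit (1.46% of all genes), 3 without robust variance estimation (1.52%), 5 with the replicate number as a block (3.18%) and 6 without Control-IgG 1 (2.37%).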

How the data were processed

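RNA came from an RNeasy column extraction and entered SMARTer library preparation, per the labels' protocols. The submitters' processing notes name the builds GRCm38 and mm10; for aligner, counter and annotation nothing was given in the sources used here. The deposited table holds 6 columns of FPKM for genes whose larger group mean reaches 0.5. The unit is not in the header and was taken from the values: times the exon length in GENCODE M21, 98.99 to 99.14% of values under 200 reads were whole within 0.1 reads. Control columns matched the labels by word and number. The other columns carry a disease abbreviation and were taken as AQP4-IgG because the design has 2 groups. The log2 fold changes and p-values deposited by the authors come from a method that is not stated, adjusted over 25034 genes.

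Tests were limma 3.58.1 (R 4.3.3) with trend and robust variance on log2(FPKM + 1), over genes averaging 1 FPKM or more. Libraries of a group differed beyond sampling noise (mean chi-square per gene 3.67 to 6.68). An exact permutation test of 3 against 3 cannot go below p = 0.1 and was not used. The scripts were tested on simulated data with 1 small dispersion for all genes. That test does not measure power for members such as H2-K1, whose libraries varied more. Alternatives were median scaling, no trend, no robust variance, filters, limma-voom, a pseudocount of 0.1, omission of each library and a block for replicate number. The members and lists were chosen with earlier results of these data known. The named genes were all members, up to 4 genes past the threshold per list (else that with the smallest p), 5 genes nearest in pattern, and Irf1, Psmb8, Psmb9 and Psmb10. A further gene of this rule is not reported here.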

Additional observations from a re-analysis of the deposited data

How the results depend on the processing

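All 124 log2 differences of the 10 genes in the 14 alternative fits were positive. These fits reuse the same 6 libraries, so the signs are not independent of each other. Fits that change only the variance estimation, the filter or the block leave each difference as it was, so their signs were fixed in advance. The count of members past the test, 1 in the reported fit, was 2 with a mean of at least 10 FPKM, 3 without robust variance estimation (H2-Q4, H2-T23 and Tapbp) and 0 to 6 when a library was left out. Among other class I genes (1 reported) it was 0 to 2 with a library left out, among genes of peptide supply and loading (4) it was 2 with a mean of at least 10 FPKM and 0 to 4 with a library left out, and among regulators (3) it was 5 with limma-voom, 2 without a trend, with no filter or with a mean of at least 10 FPKM, and 0 to 7 with a library left out. For class II genes it was 0 throughout. Over all genes the number called higher, 180, was 324 with limma-voom and 38 to 292 with a library left out. H2-K1 and Tapbp were outside limma-voom because their coordinates differ from those of GENCODE M21. The cause of these shifts was not tested.

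With the replicate number as a block, 5 members passed (H2-Q4, H2-T23, Tap1, Tap2 and Tapbp), 2 other class I genes, 6 loading genes, 7 regulators and 392 genes in all. The deviations of same-numbered libraries from their group means correlated at 0.2, 0.009 and 0.202. Those of differently numbered libraries correlated at -0.268 to 0.082. The values for numbers 1 and 3 were thus the highest, while AQP4-IgG 2 correlated better with Control-IgG 1 (0.067) than with Control-IgG 2. These values do not settle whether the numbers pair the libraries. The labels give the numbers no meaning, so the reported fit did not use them.

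The difference in the share of H2-Q4 among heavy chains stayed between 3.88 and 4.25 percentage points with any library left out. Among the 10 genes depth limits Nlrc5 most, with 104 to 252 reads per library. Of the other genes named, Il1a rests on 20 to 91, H2-Q6 on 32 to 181 and H2-DMb1 on 55 to 111 reads.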
